A study of Mus musculus with 160 samples.

Results

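The claudins described here are 10 genes, Cldn1, Cldn2, Cldn3, Cldn4, Cldn5, Cldn7, Cldn8, Cldn12, Cldn15 and Cldn23, taken by name from the 39179 genes counted in RNA-seq libraries of mouse distal colon. All 10 were found under their Ensembl identifiers and all 10 passed the filter on low counts in every comparison. The study asked how the loss of Nckap1l (also called HEM1), Dock2, Gpsm3 or Dok3, genes active in immune cells, changes the colon in dextran sulfate sodium (DSS) colitis, a model in which the detergent-like polymer damages the colonic epithelium. The 160 libraries comprised 16 Nckap1l-/- and 15 wild-type, 18 Dock2-/- and 24 wild-type, 20 Gpsm3-/- and 20 wild-type, and 26 Dok3-/- and 21 wild-type samples. The Dok3 line is labelled as strain 129 and the other lines as C57BL6/J. DSS was given for 5 days, at 3% (Dock2, Gpsm3) or 3.5% (Dok3) by the labels and at 2.8% (Nckap1l) by the paper. The paper adds that Dok3 mice received 3% in a first round of experiments, and the labels do not mark rounds. Water followed for 5 days with collection on day 10, or for 7 days with collection on day 12 in the Nckap1l line. Mice were 8 to 10 weeks old, and knockouts and wild types came from heterozygous crosses and shared cages. The knockouts were homozygous and germline, so that all cells of the colon, and not immune cells alone, lacked the gene by design. The labels do not say which mice received DSS, so each group held treated and untreated colons together, and the inflammation of each library was read from its own RNA.

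Claudins are 4-pass membrane proteins of the tight junction, the belt that closes the space between neighbouring epithelial cells. Some, such as Cldn1, Cldn3, Cldn4, Cldn5 and Cldn8, are best known for tightening this seal, whereas Cldn2 and Cldn15 form channels that let cations, and in the case of Cldn2 also water, pass between cells. In the colon, Cldn2 is typical of the crypt base, Cldn3, Cldn4 and Cldn7 of the epithelium at large, and Cldn5 of the endothelium of blood vessels. Changed claudin levels are a textbook feature of the leaky barrier in inflammatory bowel disease.

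Sequence upstream of 3 claudins is shown first, because these genes stand for the patterns described later, Cldn1 for a rise with inflammation, Cldn4 for a relation that differed among lines and Cldn12 for a decline in every line. Each is the 250 bases before the transcription start in the RefSeq annotation of GRCm38.p6, read 5′ to 3′ on the gene's strand, with the searched motifs GGGCGG (bound by Sp1 and KLF factors) and TGANTCA (bound by AP-1) in capitals on either strand. The windows lie on the minus strand at chr16:26371840-26372089 for Cldn1, chr5:134946935-134947184 for Cldn4 and chr5:5514977-5515226 for Cldn12, the most upstream of 3 Cldn12 starts.
Cldn1: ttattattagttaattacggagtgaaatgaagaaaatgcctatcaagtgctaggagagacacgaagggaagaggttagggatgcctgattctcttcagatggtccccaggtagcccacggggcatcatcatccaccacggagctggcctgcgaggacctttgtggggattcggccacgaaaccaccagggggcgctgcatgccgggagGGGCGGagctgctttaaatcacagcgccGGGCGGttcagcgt
Cldn4: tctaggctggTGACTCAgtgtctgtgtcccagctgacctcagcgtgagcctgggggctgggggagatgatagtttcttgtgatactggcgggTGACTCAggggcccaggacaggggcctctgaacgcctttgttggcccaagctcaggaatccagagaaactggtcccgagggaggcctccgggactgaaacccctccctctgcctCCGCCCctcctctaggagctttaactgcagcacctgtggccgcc
Cldn12: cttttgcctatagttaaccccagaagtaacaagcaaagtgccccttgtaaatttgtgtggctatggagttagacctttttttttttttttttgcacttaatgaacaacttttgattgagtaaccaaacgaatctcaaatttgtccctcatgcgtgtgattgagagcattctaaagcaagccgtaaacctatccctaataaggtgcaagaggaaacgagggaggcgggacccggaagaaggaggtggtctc

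GGGCGG occurred before a start of 7 of the 8 claudins in the promoter table (all but Cldn2), and in 32.7% of all 32851 promoters. Cldn2 was the only one of the 8 with TATAAA, the TATA box, 35 to 30 bases before its start, against 12.4% of all promoters. TGANTCA stood in the Cldn4 promoter at 240 to 234 and again at 158 to 152 bases before the start, and once in that of Cldn15, against 6.75% of all promoters. The STAT motif TTCNNNGAA occurred in Cldn7 and in the downstream windows of Cldn12 (7.02% of promoters). The NF-kB motif (1.41%), the HNF4 motif CAAAGTCCA (0.384%) and the CDX motif TTTATNG (9.81%) had no match in these windows. These matches describe letters in the sequence and were not tested as binding sites. Cldn3 and Cldn4 are neighbours on chromosome 5 on opposite strands (Cldn4 at 134945119 to 134946934 on the minus strand, Cldn3 at 134986214 to 134987472 on the plus strand, GRCm38).

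Some libraries carried RNA of skin, and these are kept apart throughout. In 32 libraries the 20 keratinocyte genes (Krt5, Krt10, Lor and others) summed to between 1522 and 17747 counts per 1000000 counts (CPM), against 62.2 to 364 CPM in the other 128. Of the 32, 15 belonged to the Nckap1l line, 9 to Dok3, 5 to Dock2 and 3 to Gpsm3. In 30 of the 32 libraries there was also more than 1000 CPM of striated muscle genes. Total counts ran from 4344988 to 19993833 (median 15989625), so that 3 counts correspond to 0.15 to 0.69 CPM. The epithelial gene Epcam was present in every library (258 to 1626 CPM). Sex-linked genes differed from the labelled sex in 5 Dok3 libraries. The knocked-out gene had a lower median in every knockout group, and its range overlapped that of the wild types in every line: median CPM was 0.57 against 3.21 for Gpsm3 (log2 difference -2.06, SE 0.28, edgeR adjusted p = 0.0001), 22.5 against 34.2 for Dock2 (-0.62, adjusted p = 0.21), 14.8 against 27.2 for Nckap1l (-1.09, adjusted p = 1.0) and 3.16 against 3.63 for Dok3 (-0.48, adjusted p = 1.0). One library labelled Dok3-/- had 39.6 CPM of Dok3, above the wild-type maximum of 26.3, so the genotype of the Dok3, Nckap1l and Dock2 libraries rests on the labels.

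The most abundant claudin RNAs per kilobase of exon were those of Cldn7 and Cldn3. Over the 160 libraries Cldn7, a claudin of the basolateral as well as the junctional membrane, had a median of 210 CPM per kb (48.8 to 312), and Cldn3, a sealing claudin, 174 CPM per kb (28.9 to 235). A middle group followed, with Cldn8 at 38.9 CPM per kb (4.23 to 102), Cldn2 at 33.5 (0.66 to 57.5), Cldn4 at 24.9 (8.06 to 102), Cldn12 at 18.7 (6.56 to 24.1), Cldn23 at 13.3 (2.94 to 29.6) and Cldn15 at 11.5 (1.19 to 54.9). Cldn5 (3.57 CPM per kb, 0.83 to 9.43) and Cldn1 (1.55, 0.51 to 35.4) were lowest. The gap between Cldn3 and Cldn8 was the clearest step in this order, since Cldn3 exceeded Cldn8 in 160 of 160 libraries. Cldn7 exceeded Cldn3 in 156 libraries, but neighbours further down changed places often: Cldn8 exceeded Cldn2 in 116, Cldn2 exceeded Cldn4 in 112, Cldn12 exceeded Cldn23 in 139, Cldn23 exceeded Cldn15 in 113 and Cldn5 exceeded Cldn1 in 114 of 160. The ranges of all neighbours in the order overlapped. The order of medians was the same without the skin-RNA libraries. Cldn3 overlaps the antisense gene Wbscr25. The kit marks strand, but the strand setting of the counting is not given in the sources used here.

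**Figure D1:**
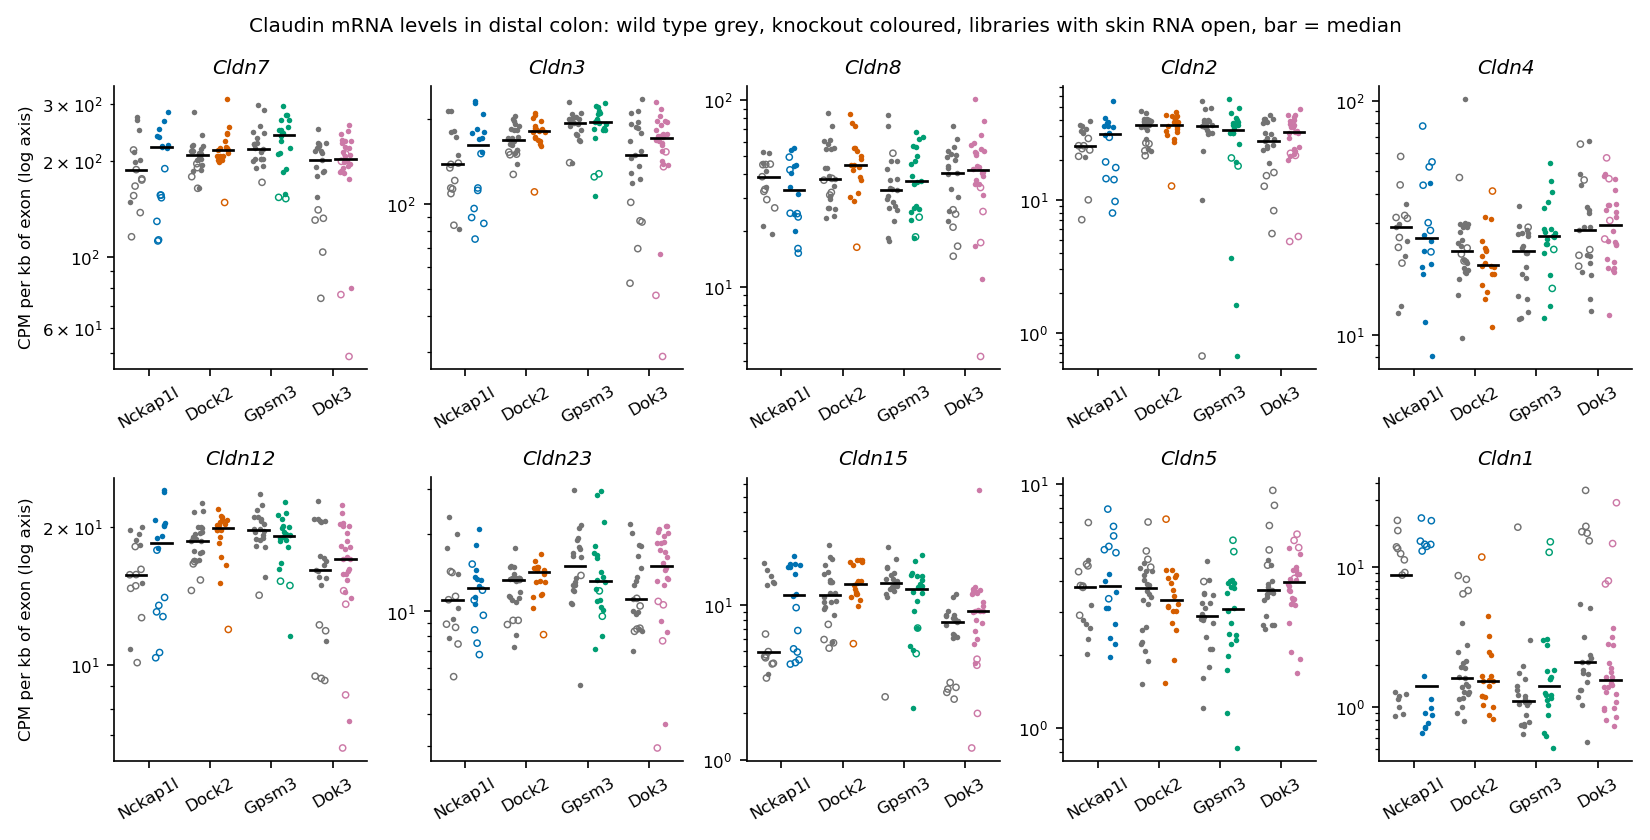
Level of each claudin in CPM per kilobase of exon (log axis) in the 4 lines, with wild-type libraries in grey, knockout libraries in colour, skin-RNA libraries as open circles and a bar at each group's median. Knockout and wild-type points overlap for every claudin in every line, and for Cldn1 the 32 open circles lie above all filled ones.

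Cldn1, which is abundant in the epidermis, split the libraries by skin RNA rather than by genotype. It had 31.1, 69.2 and 171 CPM (lowest, median, highest) in the 32 skin-RNA libraries and 2.46, 6.18 and 26.4 CPM in the other 128, with no overlap. Cldn4 and Cldn5 had higher medians in the skin-RNA libraries, 55.2 against 43.5 CPM and 7.57 against 4.61 CPM. The other claudins had lower medians there: Cldn2 58.9 against 119 CPM, Cldn3 143 against 229, Cldn7 301 against 425, Cldn8 61.6 against 99.8, Cldn12 58.4 against 81.6, Cldn15 9.56 against 26.3 and Cldn23 17.4 against 25.1 CPM. These differences are described without a test, since the split was drawn from the measured RNA. In whole tissue, fewer cells of a type and less RNA per cell cannot be told apart. Values that follow are for all libraries unless the 32 are said to be left out, and the main comparisons are given both ways.

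The first comparison asked whether losing each gene changed claudin RNA in the colon. No claudin differed between knockout and wild type in any of the 4 lines (edgeR quasi-likelihood test, adjusted p under 0.05, 0 of 10 claudins in each), and DESeq2 and limma-voom also called 0 in each. Among all genes tested the same rule called 0.0% in the Nckap1l line, 0.034% in Dock2, 0.00569% in Gpsm3 and 0.0% in Dok3, so few genes of any kind passed. At an unadjusted p under 0.05, edgeR gave 1 claudin in Gpsm3 (Cldn4) and 1 in Dok3 (Cldn15), and 0 in the other lines. Over all genes this share was 4.5%, 5.1%, 4.86% and 2.19% in the Nckap1l, Dock2, Gpsm3 and Dok3 lines. With the skin-RNA libraries left out, the count of claudins called was again 0 in each line, against 0.0%, 0.451%, 0.0114% and 0.0% of all genes.

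Among sealing claudins, Cldn4 in the Gpsm3 line had 21.2, 41.5 and 64.3 CPM (lowest, median, highest) in wild type and 21.4, 47.9 and 97.9 CPM in Gpsm3-/-. The ranges overlapped over most of their length, and the difference of 0.33 on the log2 scale (SE 0.16) did not pass (adjusted p = 0.936). In the Dock2 line Cldn4 had the opposite sign, -0.29 (SE 0.19, adjusted p = 1.0), with 17.6, 41.4 and 185 CPM in wild type and 19.6, 36.2 and 74.6 CPM in Dock2-/-. Cldn8, which tightens the distal colon against sodium leak, differed by 0.22 (SE 0.13) in the Dock2 line, with 55, 89.6 and 201 CPM in wild type and 38.4, 106 and 198 CPM in Dock2-/-, and by -0.18 to 0.13 in the other lines. Cldn3 and Cldn7 differed by at most 0.10 in either direction in all 4 lines, with SEs of 0.05 to 0.16.

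Cldn1 gave the widest estimates, and these moved with the skin-RNA libraries. In the Dok3 line it had 2.73, 10.2 and 171 CPM in wild type and 3.53, 7.52 and 140 CPM in Dok3-/-, a difference of -0.87 (SE 0.48, adjusted p = 1.0), which was -0.41 (SE 0.23) without the skin-RNA libraries. In the Nckap1l line the medians were 42.4 CPM in wild type and 6.81 CPM in Nckap1l-/-, and the fitted difference was 0.44 (SE 0.65) with and -0.20 (SE 0.19) without those libraries, which made up 8 of 15 wild-type and 7 of 16 knockout samples. Neither value passed the test.

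Of the channel-forming claudins, Cldn15 in the Dok3 line had 5.22, 16.4 and 25 CPM in wild type and 2.52, 19.5 and 117 CPM in Dok3-/-. Its difference of 0.58 (SE 0.25, adjusted p = 1.0) was 0.52 (SE 0.21, adjusted p = 1.0) without the skin-RNA libraries. Cldn2 differed by -0.19 to 0.16 over the 4 lines, with SEs of 0.10 to 0.33. Cldn12 and Cldn23, whose functions are less well defined, differed by -0.08 to 0.23, and Cldn5 by -0.13 to 0.28. With SEs of this size, differences of these magnitudes could not be distinguished from 0 in the smaller or more variable groups.

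**Figure D2:**
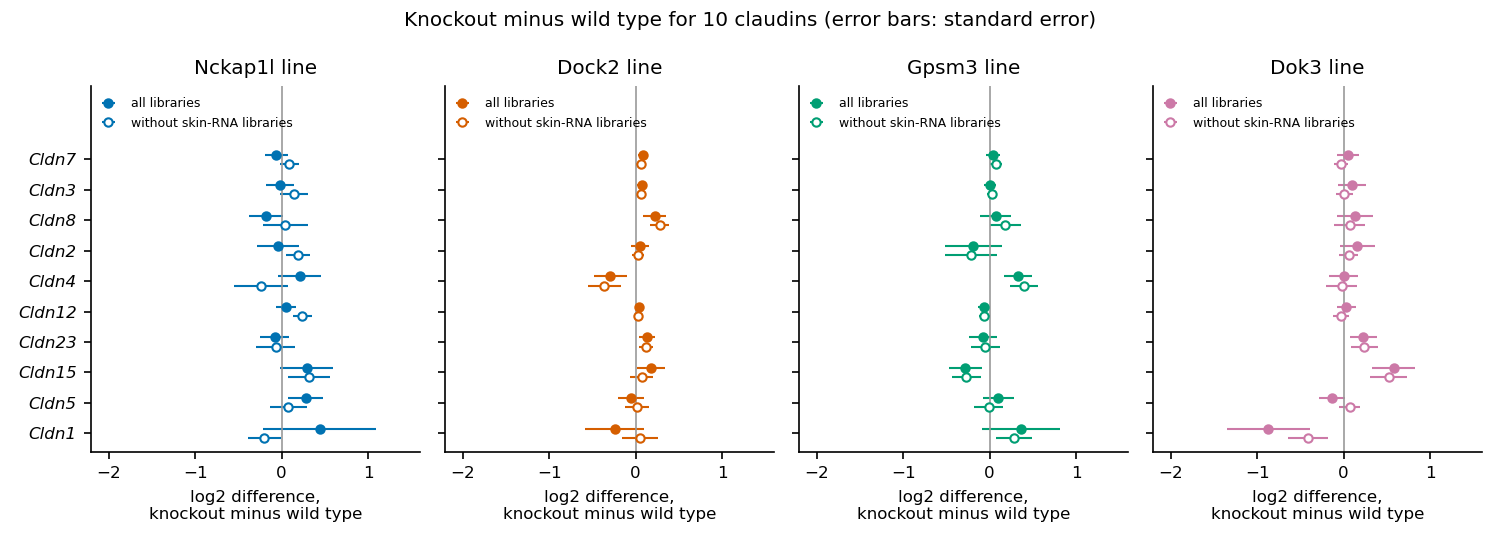
Log2 difference, knockout minus wild type, of each claudin in each line (points, with standard errors as bars), for all libraries (filled) and without the skin-RNA libraries (open). All values lie between -0.87 and 0.58, the widest bars belong to Cldn1, and no value passed the test.

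The knockout effect also did not differ detectably among lines: 0 of 10 claudins passed the genotype by line test, edgeR calling 0.69% of all genes, with the smallest adjusted p for Cldn15 (0.892, and 0.238 without the skin-RNA libraries). DESeq2 called 0 as well, and 0 claudins had an unadjusted p under 0.05, which 5.68% of all genes had. Of all genes, 1.99% passed without the skin-RNA libraries, and again 0 claudins. Other genes of the junction behaved alike. Of 37 tight junction genes (occludin, JAMs, polarity proteins, regulators and others) 36 or 37 were tested per line and 0 were called, and the same held for the 4 to 6 other claudin genes that could be tested. The smallest adjusted p in each line was 0.913 for Mylk, the myosin light chain kinase that contracts the junctional ring (log2 difference -0.52, Nckap1l), 0.549 for St14, a membrane protease (0.19, Dock2), 0.936 for Prkci, an atypical protein kinase C of the polarity complex (-0.06, Gpsm3) and 1.0 for Cldn10, another channel-forming claudin (-0.43, Dok3). Mylk is also a smooth muscle gene. The mean log2 CPM of 10 smooth muscle genes, Mylk among them, had a median of 8.72 in Nckap1l-/- and 9.34 in wild type.

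The second comparison set each claudin against inflammation. An inflammation score was computed for each library as the mean log2 CPM of 30 genes of neutrophils and acute inflammation (S100a8, Il1b, Cxcl1, Lcn2, Nos2 and others), and the slope of each claudin on this score was fitted within line, genotype, run of sample numbers and sex. A slope of 0.1 means 0.1 log2 units of claudin RNA per unit of score. In the Nckap1l line 6 of 10 claudins passed (2 rising, 4 falling), in Dock2 6 (2 rising, 4 falling), in Gpsm3 3 (1 rising, 2 falling) and in Dok3 7 (1 rising, 6 falling). These shares have to be read against the whole transcriptome, of which edgeR called 47.5% in Nckap1l (24.2% rising, 23.3% falling), 55.7% in Dock2 (28.4% and 27.3%), 55.2% in Gpsm3 (28.4% and 26.8%) and 63.6% in Dok3 (32.9% and 30.7%). The median slope of the 10 claudins was -0.08, -0.06, -0.02 and -0.11 in the 4 lines, against 0.0 over all genes. Without the skin-RNA libraries 1, 7, 4 and 8 claudins passed, with 29.9%, 57.4%, 58.5% and 55.5% of all genes called.

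Cldn12 and Cldn23 fell with inflammation in every line. Between the library of lowest and that of highest score, Cldn12 went from 102 to 45.8 CPM in the Nckap1l line, from 83.3 to 74.9 in Dock2, from 96.3 to 48.8 in Gpsm3 and from 86.0 to 31.7 in Dok3. Its slopes were -0.09, -0.06, -0.06 and -0.12 (adjusted p = 0.00018, 0.00103, 0.000234 and 9.13e-07), and without the skin-RNA libraries -0.08, -0.05, -0.06 and -0.10 (adjusted p = 0.0249, 0.00121, 2.63e-05 and 5.44e-06). Cldn12 thus passed in all 4 lines on both sets of libraries. Over all alternatives run it passed in 8 of 12 in Nckap1l, 11 of 12 in Dock2, 10 of 12 in Gpsm3 and 13 of 13 in Dok3. Here and below, the lowest and the highest score each belong to a single library. These libraries differ in genotype in Nckap1l, in genotype and sex in Dock2 and in run in Gpsm3. Between them the mean log2 CPM of 12 epithelial genes went from 9.18 to 8.31 (Nckap1l), 9.02 to 9.54 (Dock2), 9.39 to 8.49 (Gpsm3) and 9.14 to 7.49 (Dok3).

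Cldn23 went from 33.5 to 14.6 CPM in Nckap1l, from 26.7 to 13.4 in Dock2, from 24.1 to 13.1 in Gpsm3 and from 34.1 to 6.76 in Dok3 between the same libraries. The slopes of Cldn23 were -0.13, -0.09, -0.16 and -0.17 (adjusted p = 0.00281, 0.00851, 0.00169 and 4.49e-06). With the skin-RNA libraries left out they were -0.13, -0.06, -0.17 and -0.16 (adjusted p = 0.0614, 0.0486, 0.00126 and 4.65e-05), so that the Nckap1l line no longer passed. Over all alternatives run Cldn23 passed in 6 of 12, 9 of 12, 9 of 12 and 12 of 13 in the 4 lines. With the skin-RNA libraries left out and the mean log2 CPM of 11 surface colonocyte genes as a further term, an alternative chosen after seeing the data, Cldn12 passed in Dock2 and Dok3 (-0.06 in each, adjusted p = 0.00237 and 0.0469) but not in Nckap1l or Gpsm3 (-0.03 and -0.01), and Cldn23 passed in no line (-0.08 to 0.03).

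Cldn1 rose with inflammation in all 4 lines when all libraries were used, with slopes of 0.32 (SE 0.13) in Nckap1l, 0.39 (0.11) in Dock2, 0.35 (0.15) in Gpsm3 and 0.42 (0.10) in Dok3 (adjusted p = 0.0361, 0.0022, 0.0405 and 0.000597). In the libraries without skin RNA the slope passed in Dock2 (0.32, SE 0.05, adjusted p = 1.3e-06), Gpsm3 (0.25, SE 0.04, 4.65e-07) and Dok3 (0.22, SE 0.04, 7.73e-05), and was 0.06 (SE 0.06, adjusted p = 0.462) in Nckap1l, where limma-voom on all libraries gave 0.0 (adjusted p = 0.99). The SEs were smaller in this set, from which the libraries with the highest Cldn1 are absent. Cldn1 went from 5.81 to 19.2 CPM in the Dock2 line and from 4.79 to 13.6 CPM in the Dok3 line between the lowest and the highest score, none of these 4 being a skin-RNA library.

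Cldn4 differed among the lines. In Dock2 it rose with a slope of 0.26 (SE 0.04, adjusted p = 4.46e-07), from 33.1 to 185 CPM between the lowest and highest score, and in the other lines its slopes were 0.11 (Nckap1l, adjusted p = 0.127), 0.02 (Gpsm3, 0.692) and -0.02 (Dok3, 0.691). The slope differed among the lines (slope by line test, adjusted p = 0.00421). Without the skin-RNA libraries Cldn4 rose in Dock2 (0.24, SE 0.04, adjusted p = 2.25e-05) and fell in Dok3 (-0.14, SE 0.04, adjusted p = 0.00439), and the difference among lines had an adjusted p of 0.00026. The Dock2 library at 185 CPM was a wild type with the highest score of that line (6.17). As a correlation, r between Cldn4 and the score in Dock2 was 0.60 (permutation, adjusted p = 0.000491), and 0.40 without the 2 libraries farthest from the median score. In the libraries without skin RNA these values were 0.56 and 0.22. Leaving out the same 2 libraries, the fitted slope of Cldn4 in Dock2 was 0.18 (adjusted p = 0.0045), and without the skin-RNA libraries and with the epithelium score as a term it was 0.14 and did not pass (adjusted p = 0.0678).

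Cldn7 and Cldn8 were the other claudins whose slopes differed among lines (adjusted p = 0.00819 and 0.0273). In all, 3 of 10 claudins passed this test, edgeR calling 13.3% of all genes, and 2 of 10 (Cldn4 and Cldn7) without the skin-RNA libraries, with 10.8% of all genes. Cldn7 fell in Dok3 (-0.09, adjusted p = 0.00545), from 447 to 155 CPM between the lowest and highest score. In Dock2 it went from 390 to 553 CPM, with a slope of 0.04 (adjusted p = 0.0824) that passed without the skin-RNA libraries (0.06, adjusted p = 0.00161). Cldn8 fell in Dok3 from 239 to 25.9 CPM, with a slope of -0.23 (SE 0.04, adjusted p = 1.11e-06), the steepest decline of any claudin in any line, and by less in Dock2 (-0.10, adjusted p = 0.0491). In the set without skin RNA Cldn8 fell in Dok3 (-0.20, adjusted p = 6.41e-06), whereas the Dock2 slope was -0.04 (adjusted p = 0.347) and the difference among lines did not pass (adjusted p = 0.0667).

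Cldn3 fell in Nckap1l (-0.11, adjusted p = 0.00346), Dock2 (-0.05, 0.0129) and Dok3 (-0.14, 7.52e-05) and had a slope of -0.03 in Gpsm3 (0.202). The Dock2 and Dok3 declines of Cldn3 passed without the skin-RNA libraries as well (adjusted p = 0.0235 and 7.65e-06), and that of Nckap1l did not (-0.10, 0.12). Cldn2 fell in Nckap1l (-0.13, adjusted p = 0.0474) and Dok3 (-0.14, 0.00247), the latter also without the skin-RNA libraries (-0.07, 0.0112), while Nckap1l then had -0.04 (0.472). Cldn5, the endothelial claudin, rose in Nckap1l (0.11, adjusted p = 0.0286). In the set without skin RNA it fell in Dock2 (-0.14, 0.0189) and Gpsm3 (-0.10, 0.0339) and had 0.06 (0.516) in Nckap1l. Cldn15 passed in no line, with slopes of -0.07, -0.07, -0.05 and -0.01 (adjusted p = 0.416, 0.331, 0.453 and 0.94).

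**Figure D3:**
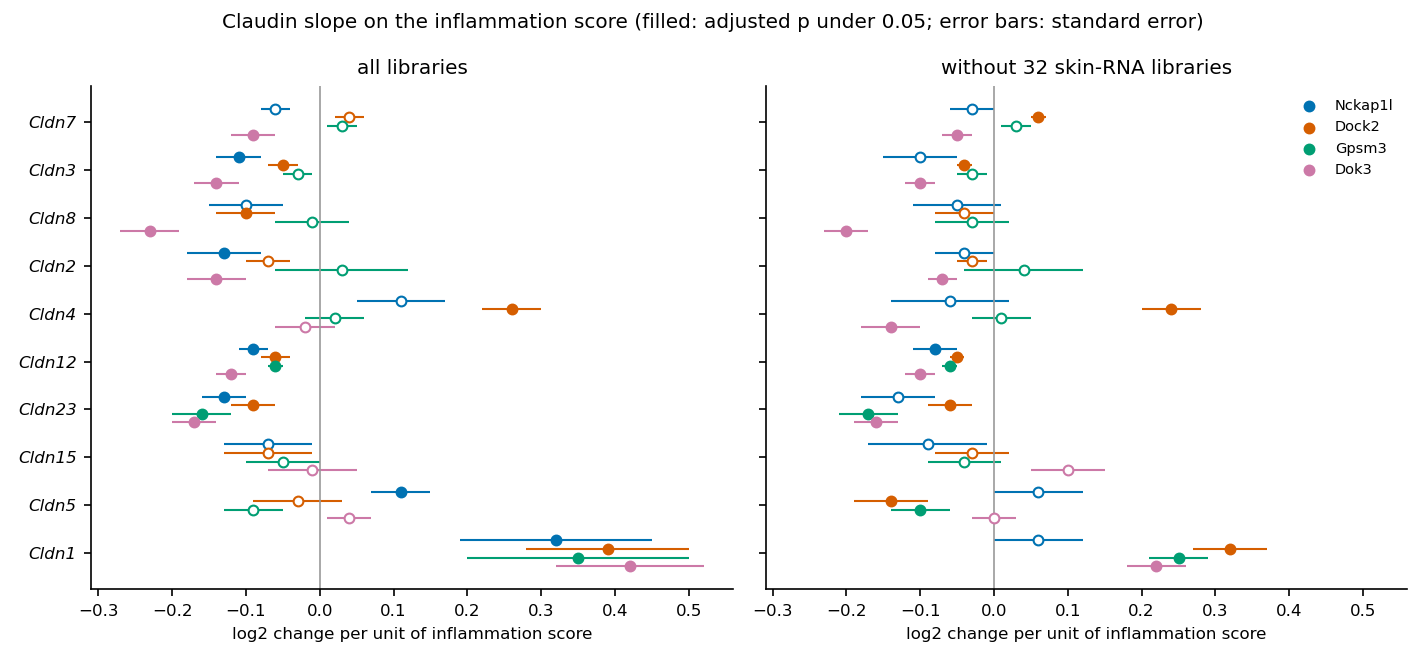
Slope of each claudin on the inflammation score in log2 units per unit of score, for the 4 lines (colours), with standard errors as bars and filled points where the adjusted p was under 0.05; all libraries on the left and without the 32 skin-RNA libraries on the right. Cldn12 and Cldn23 lie below 0 in all lines, Cldn1 above 0, and Cldn4 spreads from -0.14 in Dok3 to 0.24 in Dock2 on the right.

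The part of tissue composition in these slopes was not tested beyond the fits with a composition score as a further term, given with the processing alternatives. Across libraries Cldn7 and Cldn3 followed the mean log2 CPM of 12 epithelial genes most closely, with a median r of 0.94 and 0.90 over the 8 runs of consecutively numbered samples, and of 0.85 and 0.71 over 7 runs without the skin-RNA libraries. Cldn5 ran against the epithelial score in 8 of 8 runs (median r = -0.73) and with the score of 14 endothelial genes in 8 of 8 (median r = 0.56). Both relations of Cldn5 were weaker without the skin-RNA libraries, with a median r of -0.47 (6 of 7 runs negative) and 0.23 (6 of 7 positive). The endothelial relation was not particular to Cldn5. Cldn1 followed that score in 8 of 8 runs (median r = 0.61), and in 7 of 7 without the skin-RNA libraries (0.52). Over all libraries Cldn5 also followed the mean log2 CPM of the 20 keratinocyte genes in 8 of 8 runs (median r = 0.56).

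The same relations computed as correlations gave 24 of 40 claudin and line pairs past an adjusted p of 0.05 (20 negative, 4 positive, permutation within runs, adjusted over 180 relations), and 20 of 40 (15 negative, 5 positive, 160 relations) without the skin-RNA libraries. The share of all genes that pass this permutation rule was not computed, so these counts are not shown to be particular to claudins. For Cldn12, r with the inflammation score was -0.72 in Nckap1l, -0.44 in Dock2, -0.61 in Gpsm3 and -0.70 in Dok3, with rho of -0.68, -0.45, -0.52 and -0.61 (permutation, adjusted p of r = 0.000235, 0.0108, 0.000433 and 6e-05). Without the 2 libraries farthest from the median score r of Cldn12 was -0.70, -0.55, -0.45 and -0.63. Cldn23 gave -0.61, -0.45, -0.56 and -0.70, with rho of -0.56, -0.35, -0.43 and -0.64 (permutation, adjusted p of r = 0.000871, 0.00634, 0.000671 and 6e-05), and -0.54, -0.40, -0.38 and -0.61 without those 2 libraries. In the set without skin RNA, r of Cldn12 was -0.70, -0.40, -0.69 and -0.73 and passed in all 4 lines, and r of Cldn23 was -0.63, -0.42, -0.57 and -0.72 and passed in all but Nckap1l (permutation, adjusted p = 0.0724). Within single runs, Cldn2, Cldn12 and Cldn23 were negative in 8 of 8 (median r -0.45, -0.57 and -0.66) and Cldn1 was positive in 7 of 8 (median r 0.42). With the skin-RNA libraries left out, Cldn2 and Cldn12 were negative in 6 of 7 runs (median r -0.28 and -0.62), Cldn23 in 7 of 7 (-0.70), and Cldn1 was positive in 6 of 7 (0.56). The lowest p that 100000 permutations can give is 1e-05.

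Cldn1 had r of 0.21, 0.45, 0.43 and 0.50 with the score in Nckap1l, Dock2, Gpsm3 and Dok3, and rho of 0.27, 0.53, 0.64 and 0.65 (permutation, adjusted p of r = 0.368, 0.00746, 0.0129 and 0.0019). Without the skin-RNA libraries its r was 0.31, 0.55, 0.75 and 0.58 (permutation, adjusted p = 0.272, 0.00435, 0.000267 and 0.00143). Cldn8 had r = -0.72 in Dok3, with rho = -0.63 (permutation, adjusted p of r = 6e-05) and r = -0.69 without the 2 farthest libraries, against 0.02 in Gpsm3 (permutation, adjusted p = 0.924).

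**Figure D4:**
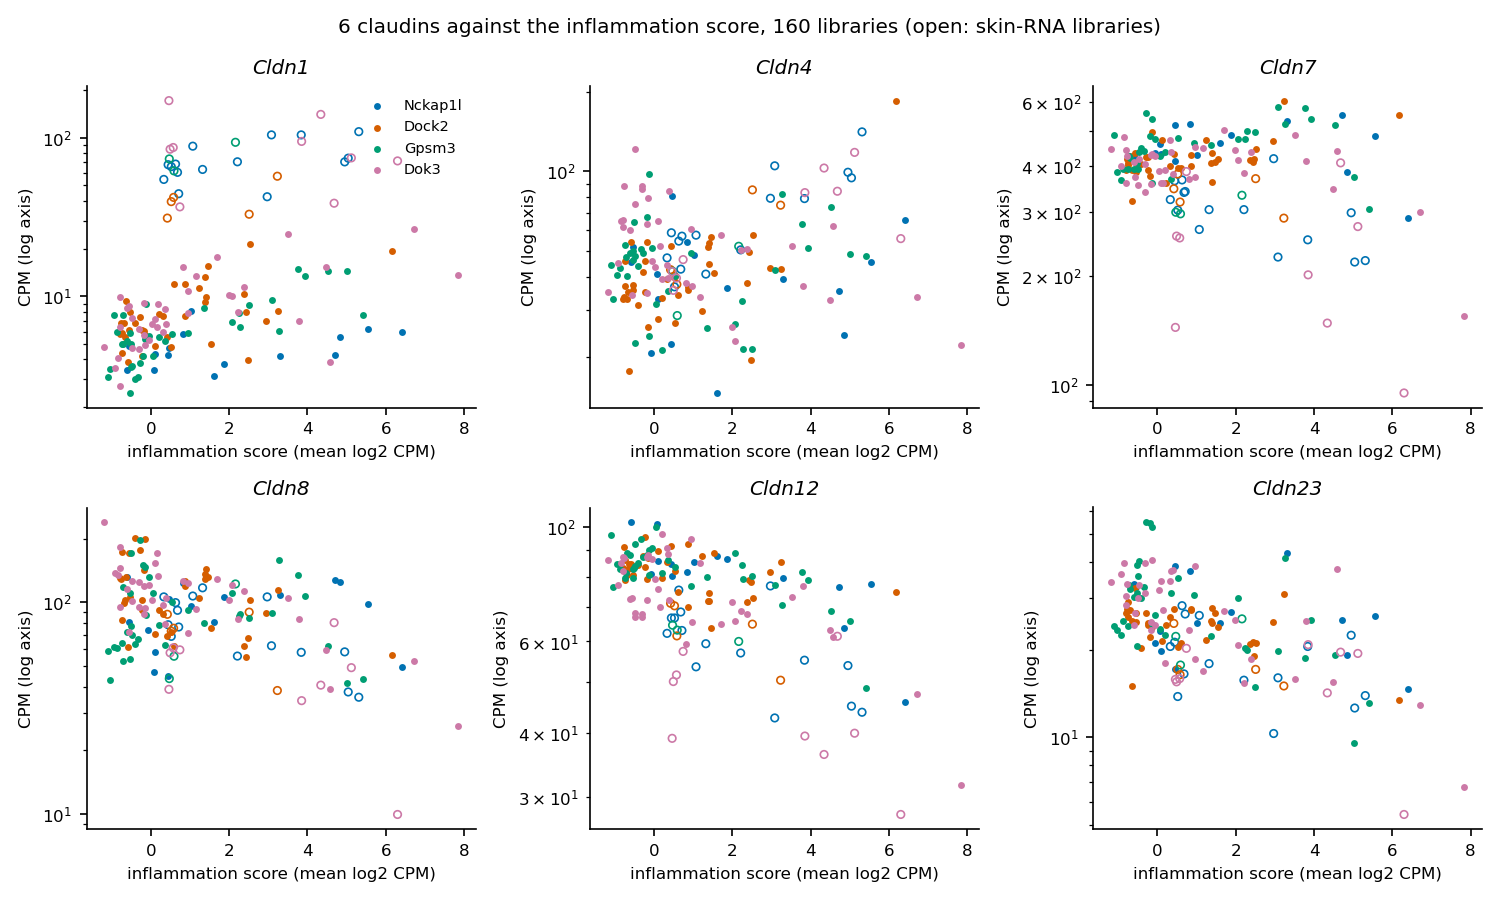
CPM (log axis) of 6 claudins against the inflammation score (mean log2 CPM of 30 genes) in 160 libraries, coloured by line, with skin-RNA libraries open. Cldn12 and Cldn23 decline with the score, the filled points of Cldn1 climb while its open points lie above them at any score, and the highest Cldn4 value, 185 CPM, is a Dock2 library at a score of 6.17.

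Other junction genes also moved with inflammation. Of the tight junction list 25 of 37 passed in Nckap1l (8 rising, 17 falling), 18 of 36 in Dock2 (7 and 11), 22 of 36 in Gpsm3 (7 and 15) and 30 of 36 in Dok3 (9 and 21), and without the skin-RNA libraries 15, 20, 22 and 27. The shares of all genes called were 47.5%, 55.7%, 55.2% and 63.6% over all libraries. Without the skin-RNA libraries, where 36 of the list were tested in each line, they were 29.9%, 57.4%, 58.5% and 55.5%. In Dock2, 18 of 36 over all libraries and 20 of 36 without those with skin RNA were below the share of all genes. Ocln, which encodes occludin, fell in Nckap1l (-0.19, adjusted p = 2e-08), Dock2 (-0.14, 3.9e-10) and Dok3 (-0.22, 2.58e-12). Patj, a scaffold of the polarity complex, fell in Nckap1l (-0.13, 3.24e-07) and Gpsm3 (-0.09, 1.06e-08), Prkcz, an atypical protein kinase C, in Gpsm3 (-0.17, 5.88e-09) and Magi1, a scaffold protein, in Dok3 (-0.15, 5.55e-12). Genes that rose included Jaml, an adhesion molecule also carried by leukocytes (0.23 in Nckap1l and 0.20 in Dok3, adjusted p = 1.21e-08 and 1.56e-12), Cgnl1, a cingulin-like protein (0.10 in Dock2 and 0.09 in Gpsm3, 3.97e-09 and 1.41e-07), and Cldnd1, a claudin-domain protein (0.15 in Dock2, 1.2e-08). Among the genes that passed the slope by line test were Lsr (adjusted p = 0.000249) and Jaml (0.000931).

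Pairs of claudins were also set against each other. With line and run means removed, 40 of 45 pairs were correlated (17 negative, 23 positive, permutation, adjusted p under 0.05) over all libraries, and 27 (8 negative, 19 positive) over the 127 libraries that remained without skin RNA and had another library in their run. The share of all gene pairs that pass this rule was not computed, so these counts are not shown to be particular to claudins. In the 127 libraries Cldn3 followed Cldn12 (r = 0.75), Cldn7 (0.73) and Cldn23 (0.63), and the channel-forming Cldn2 followed Cldn15 (0.53). For Cldn2 and Cldn15 rho was only 0.26, and r was 0.33 without the 2 libraries farthest from the median of Cldn2. Cldn5 ran against Cldn7 (r = -0.53), and Cldn1 against Cldn23 (-0.52) and Cldn12 (-0.45). The adjusted p (permutation) was 0.0001 for Cldn2 with Cldn15 and 5.62e-05 for each of the other pairs named. Although neighbours in the genome, Cldn3 and Cldn4 were only weakly related, with r = 0.24 (permutation, adjusted p = 0.0123) and -0.09 over all libraries (permutation, adjusted p = 0.291).

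The genes most like each claudin over the 160 libraries were found among 16000 genes as those with the highest r. For Cldn3 these were Grtp1, Gpa33 and Epcam (r = 0.95 each) and for Cldn7 Igsf5 and Cdh17 (0.95) and Epcam (0.94). Cldn12 was closest to Fam83e (0.92), Cutal (0.91) and Grtp1 (0.90), and Cldn15 to Galnt10 (0.89), Noxa1 (0.87) and Pdia5 (0.86). Cldn2 was closest to Cbs (0.83), Nox1 (0.82) and Sgf29 (0.80), Cldn23 to Hsd17b2 (0.81), H2-Q2 (0.79) and 4930539E08Rik (0.78), and Cldn8 to Tm4sf20, Kif13b (0.79 each) and Tnfrsf11a (0.78). Cldn5 was closest to Meis1, Zfp503 and Zfp521 (0.78 each). Cldn4 had no close partner, its highest being Sdc1 (0.60), Tnks1bp1 (0.52) and Zdhhc5 (0.51). Cldn1 was closest to Tmem65, Trim29 (0.91 each) and Acsbg1 (0.90). The lists changed when the skin-RNA libraries were left out. Over these 128 libraries Cldn1 was closest to Sh3pxd2b (0.73), Mmp19 (0.70) and Adamts1 (0.69), Cldn2 to Cdca7 (0.81), Hopx and Stmn1 (0.80 each), and Cldn3 to Prss32 (0.89), Klc4 and Tmem45b (0.88 each). Cldn5 was then closest to Gucy1a1 (0.74), Kctd12b and Pdzd2 (0.72 each), Cldn8 to Npas2 (0.80), Gpc4 (0.74) and St5 (0.73), and Cldn4 to F3 (0.59), Sdc1 (0.58) and Pard6b (0.55). The closest gene was again Igsf5 for Cldn7 (0.88), Fam83e for Cldn12 (0.85) and Galnt10 for Cldn15 (0.80), and was 4930539E08Rik for Cldn23 (0.78).

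The third comparison was between the sexes, both of which are labelled in the Nckap1l and Dock2 lines only. Cldn8 was lower in males of the Dock2 line. Its CPM was 38.3, 130 and 201 (lowest, median, highest) in 20 females and 55, 78.8 and 119 in 22 males, so that the ranges overlapped but the female median lay above every male value. The difference, male minus female, was -0.68 on the log2 scale (SE 0.13, edgeR adjusted p = 0.000498), and -0.78 (SE 0.11, adjusted p = 1.2e-05) without the skin-RNA libraries. It was the only claudin of 10 that passed, with 9.75% of all genes called in either direction and 4.26% lower in males. Cldn8 was 62.2, 130 and 201 CPM in wild-type females against 55, 72.6 and 102 in wild-type males, and 38.3, 130 and 198 in Dock2-/- females against 68.1, 95.5 and 119 in Dock2-/- males. The sex difference did not differ detectably between the genotypes (0.24, SE 0.25, adjusted p = 0.999), and 0 of 10 claudins and 0.198% of all genes passed that test. The inflammation score had a median of -0.16 in females and 0.55 in males of this line, and with the score as a further term the Cldn8 difference still passed, as it did in all alternatives tried (-0.58 to -0.78).

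In the Nckap1l line Cldn8 had 35.6, 86.3 and 125 CPM in 12 females and 44.9, 80.8 and 131 in 19 males, a difference of 0.09 (SE 0.20, adjusted p = 0.852) that was -0.09 (SE 0.33, adjusted p = 0.969) without the skin-RNA libraries. No claudin passed there (0 of 10 by edgeR, DESeq2 and limma-voom, with 0.178% of all genes called by edgeR, 3 at an unadjusted p under 0.05, as 15.7% of all genes). Only 3 females and 13 males of this line remained without the skin-RNA libraries. In its first run were 3 of 4 Nckap1l-/- and 6 of 8 wild-type females. In that run 6 of 6 Nckap1l-/- and 7 of 8 wild-type libraries carried skin RNA. The main fit had no term for run, so sex was largely confounded with run and skin RNA. A test of the Cldn8 sex difference between the lines gave -0.77 (SE 0.23, adjusted p = 0.187), and -0.69 (SE 0.30, adjusted p = 0.485) without the skin-RNA libraries, so a difference between the lines is not shown. In that test 0 of 10 claudins and 0.037% of all genes passed, 4 claudins and 11.3% of all genes having an unadjusted p under 0.05. Without the skin-RNA libraries Cldn7 was also higher in Dock2 males (0.14, adjusted p = 0.0419), with 18.3% of all genes called. Among other junction genes, Prkci (0.09, adjusted p = 0.0323) and Tjp1, the gene of ZO-1 (0.11, 0.0485), were higher and Lsr, a protein of junctions where 3 cells meet, lower (-0.12, 0.0449) in Dock2 males, and Cldn34c1 was lower in Nckap1l males (-0.69, 0.0274).

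**Figure D5:**
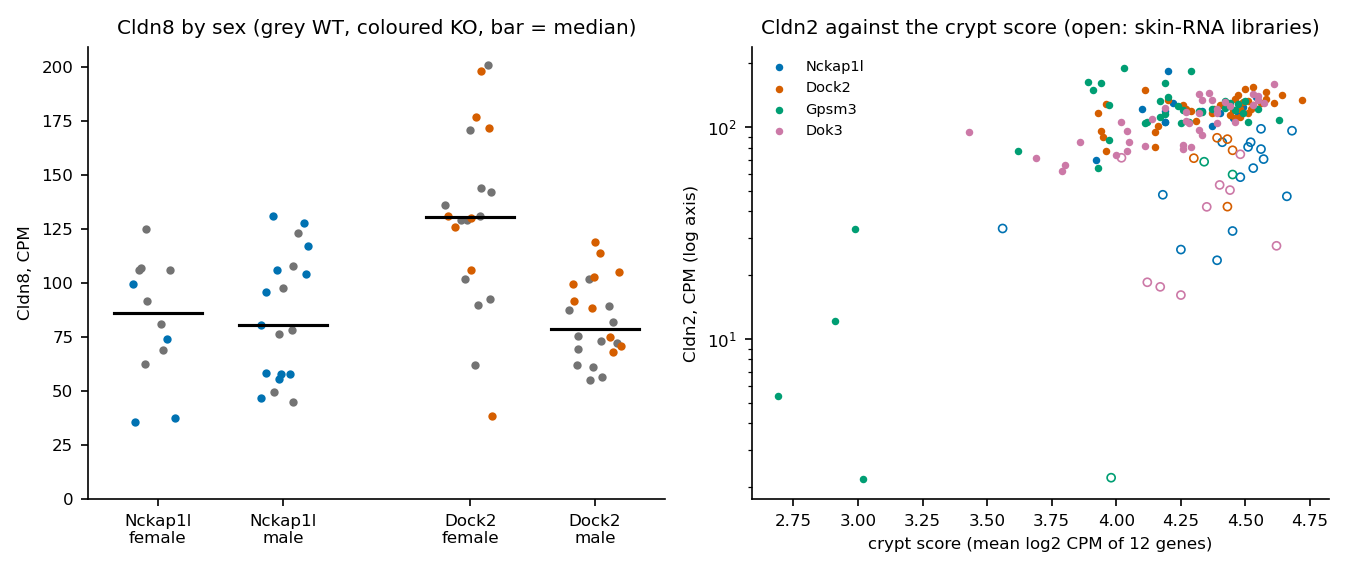
Left, CPM of Cldn8 in females and males of the Nckap1l and Dock2 lines (wild type grey, knockout coloured, bar at the median), where Dock2 females have a median of 130 and males of 78.8. Right, CPM of Cldn2 (log axis) against the mean log2 CPM of 12 crypt genes, where 3 Gpsm3 knockout libraries and 1 wild type lie apart at crypt scores of 2.69 to 3.02, with Cldn2 between 2.19 and 32.9 CPM.

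The last comparison set the 4 lines side by side in 60 wild-type males. Cldn15 differed among lines (edgeR adjusted p = 0.00109), with 7.61, 28.6 and 39.8 CPM (lowest, median, highest) in the Nckap1l line (n = 7), 12.1, 27.6 and 51.8 in Dock2 (n = 12), 5.40, 29.5 and 50.1 in Gpsm3 (n = 20) and 5.22, 16.4 and 25 in Dok3 (n = 21). Its level was thus lowest in the line of strain 129, and the ranges overlapped. With the skin-RNA libraries left out the adjusted p was 5.22e-05 and the Dok3 range was 12.9, 17 and 25 CPM. Cldn5 passed on all libraries (adjusted p = 0.047) but not without those with skin RNA (0.413), and Cldn1 the reverse (0.0594 and 0.0244). The 2 of 10 claudins that passed compare with 18.5% of all genes, and with 14.4% without the skin-RNA libraries. The Dok3 line also differed from the other 3 in strain and stated DSS dose, so that line, strain and dose cannot be told apart for its Cldn15 level. Of the other junction genes, Pard6b (adjusted p = 0.000793), Cldn10 (0.00444) and Esam (0.00847) had the smallest adjusted p.

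Cldn2 was almost missing from some Gpsm3 libraries. Its 5 lowest values in this line were 2.19, 5.40 and 12.1 CPM in Gpsm3-/- and 2.21 and 32.9 CPM in wild type, against 59.7 to 191 CPM (median 120) in the other 35. These libraries were chosen after their values were seen and no test is given. In 4 of the 5 the mean log2 CPM of 12 crypt genes was 2.69 to 3.02, below the range of the other 35 (3.62 to 4.63), and the fifth, a skin-RNA library, had 3.98. Of these crypt genes, the stem cell gene Lgr5 was at 0.36 to 0.865 CPM in those 4 against 1.09 to 26.3 in the other 35, and Ascl2, another stem cell gene, at 0.0 to 0.128 against 1.20 to 7.71. Both belong to the 12 genes whose low mean sets those 4 apart, so their values are part of that score and no separate support. The other members are not shown. The proliferation gene Mki67 was at 32.9 to 101 CPM in those 4 against 217 to 1150. Epcam was at 1160 to 1630 CPM in the 4, within or just above the range of the other 35 (788 to 1590). All 5 came from the first run of Gpsm3 sample numbers, and both genotypes are among them. Cldn15, the other channel-forming claudin, was at 4.59, 11.6 and 10.9 CPM in the 3 knockouts and at 5.40 and 23.8 CPM in the 2 wild types, against 10.3 to 50.1 (median 29.1) in the other 35.

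The crypt score was added after the relations with the inflammation, epithelial, endothelial and keratinocyte scores had been seen. Its p-values were adjusted apart from theirs, over 40 relations in each set of libraries. Across libraries without skin RNA Cldn2 followed the crypt score in Dock2 (r = 0.61, rho = 0.58, permutation, adjusted p of r = 0.0012) and Dok3 (r = 0.74, rho = 0.74, permutation, adjusted p of r = 0.0004). Without the 2 libraries farthest from the median crypt score r was 0.60 and 0.77. It did not pass in Nckap1l (r = 0.57, permutation, adjusted p = 0.143) or in the upper cluster of Gpsm3 libraries, which leaves out the 4 (r = 0.21, 0.362). Over all libraries r of Cldn2 was 0.50, 0.32, 0.18 and 0.21 in Nckap1l, Dock2, the upper Gpsm3 cluster and Dok3, and none passed, whereas rho passed in Dock2 (0.52) and Dok3 (0.47, permutation, adjusted p = 0.0154 for both). Cldn1 ran against the crypt score in all 4 lines without skin RNA, with r of -0.64, -0.59, -0.54 and -0.60 in Nckap1l, Dock2, the upper Gpsm3 cluster and Dok3 (permutation, adjusted p = 0.0252, 0.0014, 0.00727 and 0.0014, over 40 relations). Its rho did not pass in Nckap1l (-0.54, permutation, adjusted p = 0.127). Over all libraries r of Cldn1 was -0.29, -0.28, -0.28 and -0.12 and passed in no line (permutation, adjusted p = 0.272, 0.194, 0.231 and 0.556). The crypt relation was not particular to Cldn2 and Cldn1. Without skin RNA, r of Cldn12 passed in Nckap1l (0.75) and the upper Gpsm3 cluster (0.48), and r of Cldn5 in that cluster (0.49). Cldn7 passed in Dock2 (-0.54, and -0.48 over all libraries), and Cldn4 and Cldn23 in Dok3 (0.44 and 0.54). The share of all genes that pass this rule was not computed.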

How the data were processed

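Total RNA of the distal 2 cm of colon was ribosome-depleted (KAPA Stranded RNA-Seq with RiboErase) and sequenced as single reads of 100 bases. Per the submitters' processing notes the authors used STAR, Subread featureCounts and build mm10; versions and strand setting are not given in the sources used here. The deposited values are raw read counts per gene, 1 file per sample; 96.2% of 39179 genes matched a symbol in GENCODE (GRCm38). Reads shared by similar genes could be lost or split at counting.

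Groups came from the labelled line and genotype. Counts were tested with edgeR 4.0.16 (quasi-likelihood test, TMM scaling, filterByExpr, Benjamini-Hochberg over all genes tested), with sex, genotype and run of sample numbers as terms as described, and checked with DESeq2 1.42.0 and limma 3.58.1 (voom). The edgeR fits of a genotype, slope and line term were also run on simulated counts with known changes. The interaction fits, correlations, permutations and motif search were not run on simulated data. CPM for display used TMM library sizes, and log2 CPM a prior count of 2. Permutations (100000) stayed within runs. Named were all 10 claudins, the 3 junction genes with the smallest adjusted p per comparison (in part given as counts, and 1 of them not reported here), the 3 genes closest to each claudin and the knocked-out genes. The members and lists were chosen with earlier results of these data known. P-values measure the spread between samples with separate numbers, 1 per mouse as far as the labels show. Counting error alone sets the limit of 3 counts.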

Additional observations from a re-analysis of the deposited data

Results flagged for a closer look

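The slopes of 3 claudins on the inflammation score differed among the 4 lines by a test of the difference itself (edgeR slope by line test). Cldn4 had an adjusted p of 0.00421, with slopes of 0.11, 0.26, 0.02 and -0.02 in Nckap1l, Dock2, Gpsm3 and Dok3. Cldn7 had an adjusted p of 0.00819, with slopes of -0.06, 0.04, 0.03 and -0.09. Cldn8 had an adjusted p of 0.0273, with slopes of -0.10, -0.10, -0.01 and -0.23, and 0.0667 without the skin-RNA libraries. Dock2 and Gpsm3 share strain, DSS dose and day of collection, whereas Dok3 differs from them in strain and stated dose and Nckap1l in stated dose and day. The part of these in the differences was not tested.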

How the results depend on the processing

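No paired analysis was possible because the labels give each sample a number of its own that no other group shares. The count of claudins past the threshold in the knockout comparisons, 0 of 10, was the same under each alternative run. The counts for the inflammation slope changed. In Nckap1l (6) it was 1 with the epithelium score as a term, 1 without the skin-RNA libraries (summed skin genes over 1000 CPM, a threshold chosen after seeing the data), and 0 in wild types only, without libraries over 100 CPM of skin genes, and without skin-RNA libraries with the epithelium or the surface colonocyte score as a term. In Dock2 (6) it was 3 at the 100 CPM threshold and 2 in wild types only. In Gpsm3 (3) it was 0 at 100 CPM and 6 with the epithelium score, with or without the skin-RNA libraries. In Dok3 (7) it was 3 in wild types only and 4 without the skin-RNA libraries with the surface colonocyte score. The Dock2 sex count (1) was 2 without the skin-RNA libraries, and the count among wild-type males of the lines (2) was 4 by DESeq2, 4 without the libraries of mismatched sex markers and 1 without a filter. Wild types only and both skin thresholds test fewer samples (69 of 160 libraries at 100 CPM, 128 at 1000 CPM, with 16 of 31 in Nckap1l). For the settings that keep the samples the cause was not tested. For these slope, sex and line counts, the share of all genes called was computed only for the main fits and without the skin-RNA libraries, as given above. The counts under the other alternatives are therefore not shown to be particular to claudins.

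Signs turned for some slopes. In Nckap1l, without the skin-RNA libraries and with the surface colonocyte score, Cldn2 was 0.01, Cldn3 0.03 and Cldn5 -0.10, and Cldn5 was -0.01 with the epithelium score, -0.09 at 100 CPM and -0.05 without the skin-RNA libraries with the epithelium score. In Gpsm3, Cldn12 was 0.02 and Cldn23 0.11 at 100 CPM, and Cldn3 0.08 (adjusted p = 0.0105) and Cldn23 0.03 without the skin-RNA libraries with the surface colonocyte score. In Dok3, with the epithelium score, Cldn15 was 0.10 (adjusted p = 0.023) and Cldn5 -0.07; without the skin-RNA libraries these were 0.18 and -0.09 and Cldn7 was 0.0, and with the surface colonocyte score instead Cldn15 was 0.26 and Cldn7 0.01. Of 1090 values of single claudins under alternatives, 873 kept their side of the threshold and any direction they have, 77 lost and 37 gained the call, 17 changed sign with a call in at least one of both fits, and 86 changed sign with no call in either. Leaving out libraries of mismatched sex markers could not apply in Nckap1l and Dock2, which had none. The number of all genes called between knockout and wild type was 0, 6, 1 and 0 in Nckap1l, Dock2, Gpsm3 and Dok3 by edgeR and 21, 69, 4 and 3 by DESeq2. The lowest count of any claudin in a library was 19 (Cldn5).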

Other observations

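The highest Cldn15 value of the series was 117 CPM in a Dok3-/- library, the next being 51.8 CPM.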
